A study of Homo sapiens with 15 samples.

Results

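Ov4Carbo7, a line grown from a single cell of a carboplatin-resistant culture, was compared with Ov4Carbo, the culture it came from. The comparison took 6 of the 15 samples of the series, 3 Ov4Carbo7 libraries and 3 Ov4Carbo libraries, and every one of the 16604 genes in the expression table. OVCAR4 is an established cell line of high-grade serous ovarian cancer, and its platinum-sensitive parental culture is labelled Ovcar4Parental. Ov4Carbo was made from it by growth in rising concentrations of carboplatin, a platinum drug that crosslinks DNA, and the labels call both Ov4Carbo and Ov4Carbo7 carboplatin resistant. The series also holds a cisplatin-selected culture, Ov4Cis, and a line from another single Ov4Carbo cell, Ov4Carbo4. All were grown in DMEM with serum and antibiotics, and the labels do not say whether drug was present when RNA was taken. Ov4Carbo7 stands for 1 clone, so its 3 libraries, described as biological replicates, measure the spread between cultures of that clone and not between clones.

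A drug-selected culture is a mixture of cells that differ in genome and in expression, and a line grown from 1 of its cells carries the state of that founder and whatever it gained in culture. In such a comparison a gene can read higher in the clone because every cell of the clone makes it while few cells of the culture do, or because each cell makes more of it. In bulk RNA these cannot be told apart, and neither can fewer cells of a type and less RNA per cell.

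The unit was log2 RPKM, a read density that allows for gene length and sequencing depth, and a log2 difference of 1 is a factor of 2. Values are listed in the order of replicates 1, 2 and 3. A gene was called, and is said to have risen or fallen, when its adjusted p in limma was under 0.05 and its log2 fold change, Ov4Carbo7 minus Ov4Carbo, was at least 1 in size. The median value lay at 2.77 in all samples and the lowest between -8.18 and -7.68. The depth of the libraries is unknown, and error is measured by the replicate spread alone, shared over all lines of the series. Where a gene varied mainly within Ov4Carbo or within Ov4Carbo7, the standard error (SE) understates that spread. Near the bottom of the scale a log2 fold change is large and uncertain in size.

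The cells of both lines carried the markers of their origin in part. PAX8, the transcription factor that marks Müllerian epithelium and serous carcinoma, read 6.87, 6.68 and 6.68 in Ov4Carbo7 and 6.12, 6.09 and 5.66 in Ov4Carbo. SOX17, a partner of PAX8 in this lineage, read between 6.62 and 6.68 in the clone and between 6.58 and 7.22 in the culture. WT1, a nuclear marker used to recognise serous carcinoma, was close to the bottom of the scale in both, at -4.29, -4.01 and -4.40 against -3.15, -2.20 and -2.73. Markers of other cell types summed to far less than the serous lineage genes, which were also more in number. Of 6 leukocyte symbols 1 was analysed here, CD14, at 1.11 to 1.83 RPKM in Ov4Carbo7 and 0.37 to 0.41 in Ov4Carbo. The 3 endothelial genes analysed summed to 8.85 to 10.3 RPKM against 4.27 to 6.06, most of it CDH5, and the 4 fibroblast genes to 6.71 to 8.51 against 6.01 to 7.54. The 14 serous lineage genes summed to 527 to 545 RPKM in the clone and 654 to 743 in the culture. The part of other cell types in the results was not tested.

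One library stood apart before any result was read. Replicate 1 of Ov4Carbo carries a title number in the same series as all Ov4Carbo7 and Ov4Carbo4 libraries, while replicates 2 and 3 carry numbers in the series of the parental and Ov4Cis libraries. The labels do not call these series a batch. The root-mean-square difference per gene was 0.37 to 0.41 log2 units within Ov4Carbo7 but 0.57 to 0.77 within Ov4Carbo. It was 0.82 to 0.93 from the clone to replicate 1 and 1.04 to 1.18 from the clone to replicates 2 and 3. Counts for most gene lists are therefore given over all 6 libraries, without replicate 1, and against replicate 1 alone, and a value for a single gene is over all 6 unless another comparison is named. The comparison with replicate 1 alone comes from a model with a term for the title series, and it stays within 1 series but rests on a single Ov4Carbo library. A difference between series and a difference between these cultures cannot be told apart.

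In all, 2214 genes were called, 13.3% of those tested, with 1281 higher in Ov4Carbo7 (7.72%) and 933 lower (5.62%). With 1 RPKM added before taking the logarithm, the log2(RPKM + 1) scale, 491 of all 16604 genes rose and 332 fell. Counts of gene lists on that scale belong beside these and not beside the shares above. The values of the 3 clone libraries lay entirely above or below the 3 culture libraries for 7029 genes (42.3%), and for 2119 of the 2214 called. The means of both lines were under log2 RPKM 1 for 1104 of the called genes. Of the 12010 genes with a chromosome and a mean of at least log2 RPKM 1 over the 6 libraries, 500 rose and 351 fell. Weakly expressed genes were thus called more often than the rest. Without replicate 1 of Ov4Carbo, 1499 genes rose (9.03%) and 1277 fell (7.69%). Against replicate 1 alone, 958 rose (5.77%) and 602 fell (3.63%). A core of 655 genes rose and 469 fell in all 3 of these comparisons, while 567 of the rises and 440 of the falls were not called against replicate 1. Among the 1499 genes that rose against replicates 2 and 3, replicate 1 lay at a median of 0.38 of the way from those replicates to the clone, and among the 1277 that fell at 0.37. On the way to the other clone, Ov4Carbo4, it lay at 0.25 and 0.19 for the 1413 genes that rose and the 1282 that fell there. Replicates 2 and 3 served both to choose these genes and as the starting point. That choice alone can place another library part of the way to a clone, and its share in these positions was not tested.

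**Figure D1:**
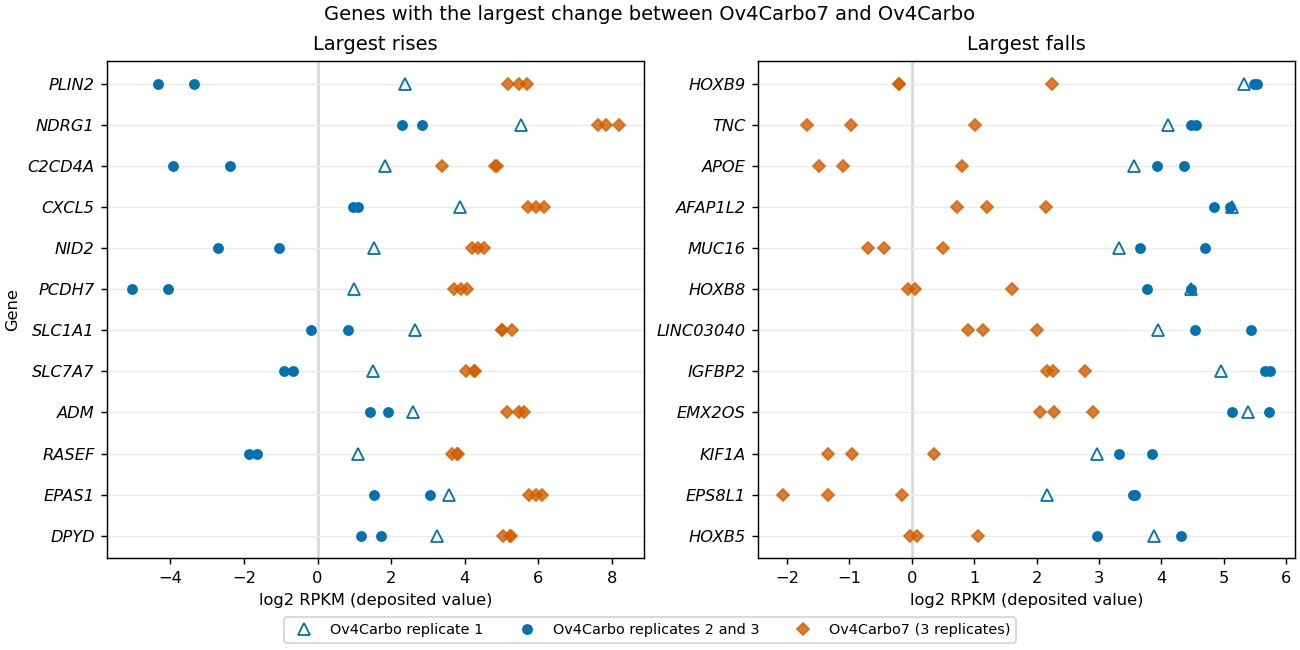
Deposited log2 RPKM (x axis) of the 12 genes with the largest rise and the 12 with the largest fall on the log2(RPKM + 1) scale (y axis), with 1 point per library. For the rises, replicate 1 of Ov4Carbo (open triangles) lies between replicates 2 and 3 (filled circles) and the 3 Ov4Carbo7 libraries (diamonds) in each of the 12 genes. For the falls it lies nearer to the other Ov4Carbo libraries than to the clone, and Ov4Carbo7 replicate 2 is the highest of the 3 clone libraries in all 12.

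Genes with the largest changes were ranked on the log2(RPKM + 1) scale, on which weak genes count for less. There PLIN2 (ENSG00000147872, chromosome 9) rose most, by 4.53. It encodes perilipin 2, the protein that coats lipid droplets in most cells. It read 5.47, 5.69 and 5.18 in Ov4Carbo7 and 2.39, -3.37 and -4.35 in Ov4Carbo, or 36.2 to 51.5 RPKM against 0.049 to 5.23. Every clone library was above every culture library, and within the culture replicate 1 lay far above replicates 2 and 3. The standard deviation was 3.64 in the culture and 0.26 in the clone. The plain log2 fold change was 7.22 (SE 1.28, adjusted p = 9.6e-04), it was 9.30 without replicate 1, and against replicate 1 alone it was 3.06, which was also called. PLIN2 was low in Ov4Carbo4, at a mean of -5.23, and at 1.80 in the parental line.

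NDRG1, a stress-response gene induced by lack of oxygen, came next on that scale with 4.17, at 7.60, 7.82 and 8.19 against 5.52, 2.30 and 2.83 (plain log2 fold change 4.32, SE 0.60). The other genes with the largest rises were of several kinds. CXCL5, a chemokine that attracts neutrophils, read 5.71, 6.15 and 5.94 against 3.87, 0.98 and 1.09. NID2, a basement membrane protein, read 4.19, 4.52 and 4.36 against 1.53, -2.71 and -1.05, and PCDH7, a protocadherin of cell contacts, 3.91, 3.72 and 4.05 against 0.99, -5.04 and -4.06. The parental means of NID2 and PCDH7 were 4.48 and 1.66, so for NID2 the clone was close to the parental level and the culture was low. There were 2 amino acid carriers among the 12. SLC1A1, which takes up glutamate, read 5.29, 5.02 and 5.0 against 2.64, 0.83 and -0.18. SLC7A7, a subunit of the exchanger of basic amino acids, read 4.28, 4.26 and 4.03 against 1.51, -0.92 and -0.66. DPYD, the enzyme that breaks down uracil and the drug 5-fluorouracil, read 5.04, 5.22 and 5.25 against 3.25, 1.19 and 1.73. ADM, EPAS1, C2CD4A and RASEF complete the 12, with plain log2 fold changes of 3.43, 3.20, 5.85 and 4.56. In all 12 the clone libraries lay above the 3 culture libraries and replicate 1 was the highest of the culture, and 11 were also called against replicate 1 alone. The exception was C2CD4A (2.52, adjusted p = 0.11).

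The 12 genes that fell most behaved differently among the libraries. HOXB9, a homeobox gene of the posterior HOXB cluster, read -0.21, 2.25 and -0.21 in Ov4Carbo7 and 5.33, 5.49 and 5.53 in Ov4Carbo. TNC, the matrix protein tenascin C, read -1.67, 1.01 and -0.98 against 4.10, 4.55 and 4.48. APOE, a lipid-carrying apolipoprotein, read -1.48, 0.81 and -1.10 against 3.56, 4.36 and 3.92. The 3 culture libraries were close together in these genes, and the spread lay in the clone, where replicate 2 was the highest. MUC16, which encodes the ovarian tumour antigen CA125, read -0.44, 0.50 and -0.70 against 3.32, 4.70 and 3.66 (log2 fold change -4.11, SE 0.49, adjusted p = 7.4e-05). IGFBP2, a binding protein of insulin-like growth factors, read 2.26, 2.78 and 2.17 against 4.96, 5.66 and 5.75. AFAP1L2, HOXB8, LINC03040, EMX2OS, KIF1A, EPS8L1 and HOXB5 complete the 12, with log2 fold changes from -4.28 (EPS8L1) to -3.0 (EMX2OS). All 12 were called without replicate 1 of Ov4Carbo and against it alone. Over all 933 genes that fell, replicate 2 was the highest of the clone libraries in 438, replicate 1 in 322 and replicate 3 in 173.

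On the plain log2 scale the largest changes belonged to genes near the bottom of the scale in 1 of the lines, and 4 of these had been named in an earlier account of the data. ABCB1 rose most there, by 7.38, and PLIN2 rose, and PASD1 and APBB1IP fell. PASD1, a gene of the X chromosome normally restricted to testis, read -7.00, -2.29 and -7.75 against 1.29, 1.53 and 1.48. APBB1IP, an adaptor of integrin activation known from blood cells, read -6.69, -1.53 and -5.67 against 1.88, 1.74 and 1.98. In linear units the fall of PASD1 was from between 2.45 and 2.88 RPKM to between 0.0047 and 0.204. Again the single higher value in the clone was that of replicate 2.

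Genes of the hypoxia response and glycolysis were called in 1 direction. Cells short of oxygen stabilise the transcription factors HIF1A and EPAS1, which with ARNT bind short elements in the DNA and raise genes for glucose uptake, glycolysis, blood vessel growth and the turnover of mitochondria. The prolyl hydroxylases of the EGLN family mark these factors for destruction through VHL when oxygen is present, and EGLN3 is itself a target. Of the 43 genes of this list in the table, 22 rose and 0 fell, beside 7.72% and 5.62% of all genes. The median log2 fold change was 1.06, against 0.00 over all genes. The counts were 23 and 0 without replicate 1 of Ov4Carbo, and 17 and 0 against it alone. On the log2(RPKM + 1) scale, which gives weak genes less room, 21 rose and 0 fell, beside 491 and 332 of all 16604 genes.

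The promoters of 3 genes that rose are printed, LOX and ENO2 of this list and PLIN2 of the lipid droplet list. They were picked because each holds ACGTG on either strand, a form of the core of the hypoxia response element. The promoters were searched from 250 bases before the start site to 50 after it, for this form alone. They are RefSeq sequences of build GRCh38.p14 and run 5′ to 3′ on the strand of the gene, with every match in capitals.
PLIN2: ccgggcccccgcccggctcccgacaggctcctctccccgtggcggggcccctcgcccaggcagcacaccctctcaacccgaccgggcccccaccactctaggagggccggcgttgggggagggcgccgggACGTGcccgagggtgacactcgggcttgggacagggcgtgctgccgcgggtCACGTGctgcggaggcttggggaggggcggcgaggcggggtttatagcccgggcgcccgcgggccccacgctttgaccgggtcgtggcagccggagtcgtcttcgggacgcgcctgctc
LOX: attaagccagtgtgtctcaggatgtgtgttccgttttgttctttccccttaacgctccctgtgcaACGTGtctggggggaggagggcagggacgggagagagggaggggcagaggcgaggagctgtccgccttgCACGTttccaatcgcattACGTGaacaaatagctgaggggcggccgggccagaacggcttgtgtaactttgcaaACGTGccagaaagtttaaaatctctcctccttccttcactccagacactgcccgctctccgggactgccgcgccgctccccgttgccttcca
ENO2: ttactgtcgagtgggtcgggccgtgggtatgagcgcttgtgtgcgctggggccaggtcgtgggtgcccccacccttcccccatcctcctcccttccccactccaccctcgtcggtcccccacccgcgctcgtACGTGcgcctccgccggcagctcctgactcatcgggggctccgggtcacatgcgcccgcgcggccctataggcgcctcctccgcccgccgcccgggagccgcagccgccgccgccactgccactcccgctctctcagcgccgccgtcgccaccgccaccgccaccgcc
The window of PLIN2 lies at chr9:19127443-19127742 on the minus strand and holds 3 matches, 2 of which overlap as a single palindrome read on each strand. That of LOX lies at chr5:122078210-122078509 on the minus strand and holds 4 matches. That of ENO2 lies at chr12:6914330-6914629 on the plus strand and holds 1. The motif was chosen after the values were seen, and being short it is common. It was in 21.6% of the 27305 promoters of the table, in 26.6% of the 11161 that belong to genes measured here, and in 15 of the 39 list genes with a promoter (38.5%). It was in 10 of the 20 list genes that rose and had a promoter (50%). The windows of ADM, EPAS1, EGLN3 and PFKFB4 hold no ACGTG on either strand. Other forms of the element were not searched, so these windows and shares do not tell which promoters lack it.

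Among the factors themselves, EPAS1, also called HIF-2 alpha, read 5.74, 5.93 and 6.09 in Ov4Carbo7 and 3.57, 1.54 and 3.05 in Ov4Carbo (log2 fold change 3.20, SE 0.40, adjusted p = 9.2e-05). HIF1A read 6.90, 7.19 and 7.14 against 6.34, 5.54 and 6.13 and also rose, by 1.07, but was not called against replicate 1 alone. VHL, the ubiquitin ligase subunit, read 4.06, 4.12 and 4.07 against 3.83, 4.3 and 4.62 and was not called. EPAS1 in the clone was close to the parental mean of 5.26, so the 3 culture libraries were the low ones.

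Of the targets, ADM, which encodes the vessel-dilating peptide adrenomedullin, read 5.46, 5.16 and 5.61 against 2.60, 1.42 and 1.92 (log2 fold change 3.43, SE 0.26, adjusted p = 3.9e-06). LOX, the enzyme that crosslinks collagen, read 5.79, 6.08 and 6.23 against 4.09, 2.67 and 3.65. EGLN3 read 5.95, 5.68 and 5.89 against 4.23, 2.97 and 2.83. In each of the 3 the clone libraries were tightly grouped above the culture. BNIP3L and BNIP3, receptors for the removal of mitochondria, rose by 2.00 and 1.30. CA12, a carbonic anhydrase of the cell surface, read 6.96, 6.86 and 6.92 against 5.81, 5.19 and 4.39. VEGFA, the vascular growth factor, was not called over all libraries (6.09, 6.12 and 6.22 against 4.83, 5.73 and 6.12).

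Genes of glucose uptake and glycolysis rose in part. SLC2A1, the glucose transporter GLUT1, read 6.45, 6.63 and 7.12 against 5.59, 4.58 and 4.81. ENO2, the neuronal form of enolase, read 5.26, 5.26 and 5.79 against 3.12, 2.65 and 2.73. PDK1, the kinase that keeps pyruvate out of the mitochondrion, read 4.78, 4.72 and 5.01 against 3.30, 3.06 and 3.43. HK2, the inducible hexokinase, rose by 1.33 and PFKFB4, a regulator of phosphofructokinase, by 2.33. The abundant enzymes were below the fold threshold while their libraries did not overlap: LDHA differed by 0.87, and GAPDH, at 9.76 in each clone library and 8.82, 8.95 and 8.82 in the culture, by 0.89 (SE 0.08). PFKM, the muscle form of phosphofructokinase, lay the other way at -0.50 and was not called. ENO2, GAPDH and TPI1 lie on chromosome 12 and PDK1 on chromosome 2, in stretches described further on where most neighbouring genes also read higher in the clone. Of the 21 list genes that rose and were expressed at a mean of log2 RPKM 1 or more, 19 lay outside such stretches. Over all genes at that level, so did 435 of the 500 that rose, a like share.

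**Figure D2:**
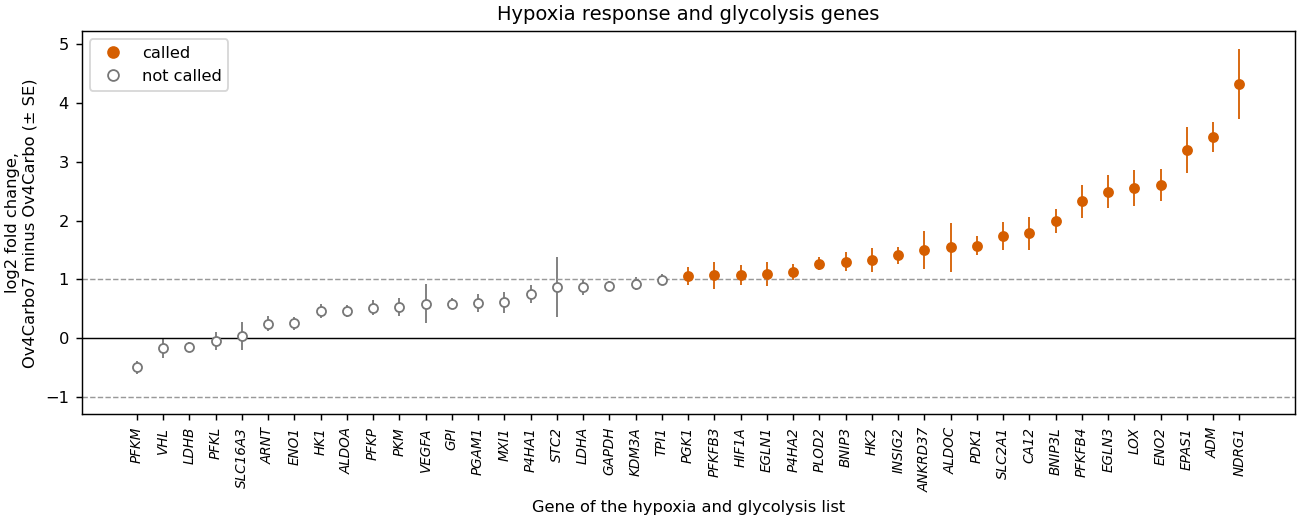
Log2 fold change of Ov4Carbo7 against Ov4Carbo (y axis, with the standard error of the fit as bars) for the 43 genes of the hypoxia and glycolysis list (x axis, sorted), with called genes filled and dashed lines at 1 and -1. The 22 called genes all lie above the upper line, up to NDRG1 at 4.32, and the lowest gene, PFKM, lies at -0.50.

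Lipid droplet and fatty acid genes did not move as a group: 7 of 37 rose and 3 fell, beside 7.72% and 5.62% of all genes, with the same counts in all 3 comparisons and a median log2 fold change of 0.09. The rises took in PLIN2 and enzymes at both ends of the droplet's life. GPAT3, which starts triglyceride synthesis, read 1.80, 1.78 and 1.97 against -0.54, -0.70 and -0.80, with the 3 culture libraries close together. MGLL, which releases the last fatty acid of a triglyceride, read 6.44, 6.41 and 6.30 against 5.32, 4.42 and 4.06. PPARGC1A, the coactivator of mitochondrial genes, rose by 2.24, and HILPDA, an inhibitor of droplet lipolysis that is induced by hypoxia, by 1.01, a call lost without replicate 1 of Ov4Carbo. The falls were CPT1C, a brain-type carnitine palmitoyltransferase (-4.55, -4.77 and -5.01 against -1.55, 0.23 and 0.24), LIPE, the hormone-sensitive lipase, and DGAT2, which completes triglyceride synthesis. On the log2(RPKM + 1) scale the list had 5 rises and 0 falls, beside 491 and 332 among all 16604 genes. Of the 35 cholesterol and fatty acid synthesis genes 0 rose and 1 fell, TM7SF2, which was not called against replicate 1 of Ov4Carbo.

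Among the pumps and carriers that matter for drug resistance, ABCB1 stood out. It encodes P-glycoprotein, which exports taxanes and anthracyclines but is not a known carrier of platinum drugs. It read 2.41, 2.71 and 2.94 in Ov4Carbo7 and -0.41, -6.37 and -7.30 in Ov4Carbo, or 5.30 to 7.66 RPKM against 0.0063 to 0.753. Replicate 1 of the culture lay far above replicates 2 and 3, which were near the bottom of the scale, and was still 3.09 below the clone, a difference that was called (adjusted p = 3.1e-04). The fitted log2 fold change was 7.38 (SE 1.24, adjusted p = 7.0e-04 in limma). That SE rests on the spread shared by all lines, while the standard deviation was 3.74 in Ov4Carbo and 0.27 in Ov4Carbo7. ABCB1 was at a mean of -6.19 in Ov4Carbo4 and -6.77 in the parental line. The genes beside it on chromosome 7, looked up after the values were seen, did not rise with it: SLC25A40 read 3.24, 3.25 and 3.16 against 3.45, 3.47 and 3.89, CROT 1.68, 1.67 and 1.84 against 2.25, 1.90 and 1.74, and DBF4 3.82, 3.56 and 3.53 against 3.95, 4.69 and 4.33.

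Of the 21 ABC transporter genes, 5 rose and 1 fell, beside 7.72% and 5.62% of all genes. The counts were the same without replicate 1 of Ov4Carbo and 2 and 1 against it alone, beside 5.77% and 3.63% of all genes. On the log2(RPKM + 1) scale only ABCB1 was called. ABCC2, an organic anion pump also called MRP2, read 0.39, -0.19 and 0.51 against -1.76, -1.28 and -2.17 and was called in all 3 comparisons, at no more than 1.42 RPKM. ABCG2, the breast cancer resistance protein, rose by 2.00 to values still between -0.63 and 0.02 and was not called against replicate 1 alone. ABCC1, a multidrug pump that was well expressed in both lines, read 5.82, 5.93 and 5.90 against 5.80, 5.51 and 5.77 and was not called.

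The 23 platinum uptake, copper and metallothionein genes gave 5 rises and 2 falls, beside 7.72% and 5.62% of all genes, with 4 and 2 without replicate 1, 2 and 1 against it alone, and 1 and 1 on the log2(RPKM + 1) scale. SLC31A1, the copper importer CTR1 through which platinum drugs can enter, read 3.73, 4.11 and 4.10 against 3.66, 3.35 and 4.16 and was not called (log2 fold change 0.26, SE 0.17). The copper exporters moved in opposite directions. ATP7A read 2.53, 2.76 and 2.85 against 1.95, 1.26 and 1.54, and ATP7B 0.13, -0.08 and -0.09 against 0.66, 0.97 and 1.37. Neither was called against replicate 1 alone. Of the metallothioneins, small proteins that bind metals, MT2A rose to 6.08, 5.88 and 6.02 from 5.17, 4.81 and 3.64, but was not called against replicate 1 (0.82, adjusted p = 0.22). MT1E fell to -3.21, -2.67 and -3.07 from 1.00, 0.74 and -0.45 and was called in all 3 comparisons. MT1X was not called, at 1.23, 0.84 and 1.01 against 0.36, 0.88 and -0.33. The parental means of MT2A, MT1E and MT1X were 6.28, 4.79 and 0.86.

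Of 40 genes of glutathione metabolism and the NRF2 response, which protects cells from oxidants, 6 rose and 2 fell, beside 7.72% and 5.62% of all genes. The counts were the same without replicate 1 of Ov4Carbo. Against it alone 3 rose and 2 fell, close to the 5.77% and 3.63% of all genes. SLC7A11, the cystine importer that feeds glutathione synthesis, read 6.30, 6.33 and 6.49 against 4.85, 4.98 and 4.78, with the libraries of each line close together. HMOX1, haem oxygenase, read 3.84, 3.84 and 3.87 against 2.06, 1.70 and 1.45. Both were called in all 3 comparisons. GSTM4 rose by 1.36 while its neighbour in the same glutathione transferase family, GSTM3, fell by 1.70. These are close paralogs, so reads may have been divided between them in the authors' counting. NFE2L2, which encodes NRF2, read 5.46, 5.46 and 5.45 against 4.80, 4.42 and 4.97 and was below the fold threshold.

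Epithelial genes fell far more often than they rose. Epithelial cells are held together by cadherin, claudin and desmosome proteins, under factors such as GRHL2, OVOL1 and the splicing regulator ESRP1, and carcinoma cells that move towards a mesenchymal state lose them. Of 50 genes of epithelial adhesion and identity 22 fell and 1 rose, beside 5.62% and 7.72% of all genes, with a median log2 fold change of -1.01. The counts were 24 and 0 without replicate 1 and 15 and 0 against it alone. On the log2(RPKM + 1) scale 12 fell and 0 rose, beside 332 and 491 of all 16604 genes. The largest fall of the list was that of GRHL2, which read -6.37, -6.05 and -7.13 in Ov4Carbo7 and -4.95, -1.68 and -1.28 in Ov4Carbo (log2 fold change -3.88). Its mean was 3.43 in the parental line, so both resistant lines were far below that level.

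ESRP1 read -0.82, -0.23 and -1.0 in the clone against 1.82, 3.14 and 3.90. EPCAM, the epithelial cell adhesion molecule, read 3.06, 3.04 and 2.93 against 4.94, 5.65 and 5.36 (log2 fold change -2.31, SE 0.19, adjusted p = 8.8e-06). ST14, the surface protease matriptase, read -0.43, 1.00 and 0.04 against 3.31, 3.41 and 2.96. In these 3 the lines did not overlap, and each was called in all 3 comparisons. The claudins CLDN3, CLDN4 and CLDN7, which seal tight junctions, fell by 2.01, 1.93 and 1.89, and CLDN7 was not called against replicate 1 of Ov4Carbo (-0.82). CDH1, which encodes E-cadherin, read 1.75, 2.29 and 1.37 against 2.35, 2.99 and 3.31. It fell by 1.08 (adjusted p = 0.019), but by only 0.55 against replicate 1, which was not called (adjusted p = 0.39). The call of CDH1 was also lost without replicate 2 or replicate 3 of Ov4Carbo, or without replicate 3 of the clone. ERBB3, a receptor of the EGF receptor family, fell by 3.07 and was not called against replicate 1 either. The keratins KRT7, KRT8 and KRT18 were not called and lay between 5.30 and 6.47 in the clone.

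The serous lineage list overlaps the epithelial one in EPCAM, and 6 of its 14 genes fell while 0 rose, beside 5.62% and 7.72% of all genes (7 without replicate 1 of Ov4Carbo and 5 against it alone). MUC16 is described above. EMX2, a homeobox gene of the reproductive tract, read 3.25, 3.61 and 2.88 against 5.50, 5.86 and 5.45, and EMX2OS, the transcript from its other strand, fell beside it by 3.0. Without knowledge of strand in the counting, reads of this pair could not be told apart. MSLN, the surface protein mesothelin, fell by 1.34 and CDH6, a kidney and ovary cadherin, by 1.15. PAX8, SOX17 and MECOM were not called.

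A block of the HOXB cluster fell together. HOX genes lie in clusters and are expressed in the order in which they lie, and they give cells positional identity along the body axis. HOXB5, HOXB6, HOXB7, HOXB8 and HOXB9 all fell, by between 1.99 and 4.84 log2 units, and each was called in all 3 comparisons. HOXB7 read 1.05, 0.71 and 0.66 against 2.62, 3.13 and 2.64. HOXB8 read 0.06, 1.60 and -0.06 against 4.48, 4.47 and 3.77, and HOXB5 0.08, 1.06 and -0.02 against 3.89, 4.31 and 2.97. HOXB2, HOXB3 and HOXB4 on one side were lower by 0.61 to 0.85 and were not called, and HOXB13 on the other differed by 0.30. In the HOXA cluster HOXA6, HOXA11 and HOXA13 rose, by 1.27, 1.01 and 2.49, and the remaining 8 were not called. HOXA11 was not called without replicate 1 of Ov4Carbo (0.99). The HOX genes were listed after their values were seen, so these counts are a description. In the other clone, Ov4Carbo4, the same 5 HOXB genes had means of 1.26 (HOXB5), 0.33 (HOXB6), 1.09 (HOXB7), 1.78 (HOXB8) and 1.60 (HOXB9). Between the clones 20.9% of all genes were called, and of these 5 only HOXB8 was (-1.25). The differences for HOXB5, HOXB6, HOXB7 and HOXB9, at -0.88, 0.04, -0.29 and -0.99, were not called.

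**Figure D3:**
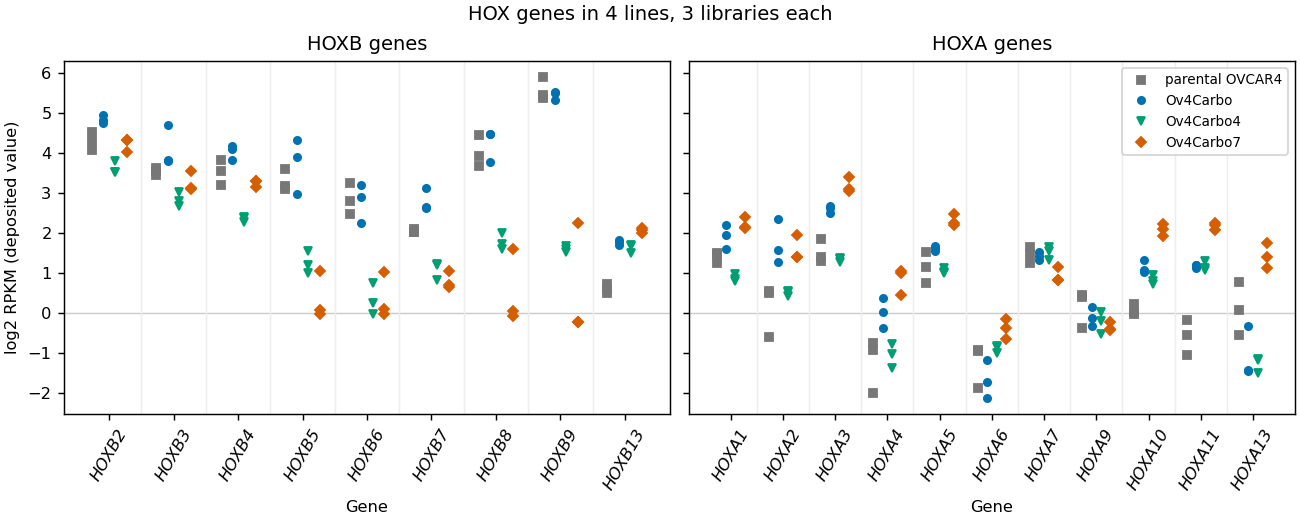
Deposited log2 RPKM (y axis) of the HOXB and HOXA genes (x axis, by number) in the parental line, Ov4Carbo, Ov4Carbo4 and Ov4Carbo7, with 1 point per library. HOXB5 to HOXB9 lie between -0.21 and 2.25 in Ov4Carbo7 and between 2.26 and 5.53 in Ov4Carbo, while HOXB13 is level.

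Mesenchymal genes rose more often than they fell, but some of the best known did not move. Of 28 mesenchymal markers and transition factors 13 rose and 4 fell, beside 7.72% and 5.62% of all genes, with a median log2 fold change of 0.84. The counts were 14 and 5 without replicate 1, 9 and 5 against it alone, and 8 and 3 on the log2(RPKM + 1) scale. CD44, the hyaluronan receptor, read 5.28, 5.39 and 5.36 against 4.02, 2.63 and 1.96. MMP14, a membrane-bound collagenase, read 4.39, 4.89 and 4.70 against 3.06, 1.82 and 3.02. FN1, fibronectin, read 1.58, 2.14 and 2.16 against -0.20, -2.08 and -0.72. These 3 were called in all 3 comparisons. Of the transcription factors that repress epithelial genes, ZEB1 read 3.34, 3.42 and 3.51 against 2.73, 2.15 and 2.17. It rose by 1.07, and by 0.70 against replicate 1, which was not called, and its call was lost without replicate 2 or replicate 3 of Ov4Carbo. TWIST1 rose by 1.37, and SNAI1 was not called. VIM, the filament protein vimentin, was at 8.15, 8.22 and 8.26 in the clone and 8.23, 7.77 and 7.32 in the culture and was not called, nor was CDH2, N-cadherin. The falls were TNC, S100A4, CDH6 and MMP2. This list shares CDH6 with the serous lineage list, TNC with the matrix list and LOX with the hypoxia list, so the counts of these lists are not separate.

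Collagen and matrix genes changed in both directions. Of 48 genes 16 rose and 6 fell, so 45.8% were called against 13.3% of all genes. The counts were the same without replicate 1 of Ov4Carbo, 11 and 6 against replicate 1 of Ov4Carbo alone, and with 1 RPKM added before taking the logarithm they were 10 and 3. The pair COL4A3 and COL4A4, basement membrane collagens transcribed from a shared promoter region, rose together. COL4A3 read 1.11, 0.74 and 1.08 against -2.34, -6.00 and -5.38, and COL4A4 2.17, 2.20 and 2.61 against -0.09, -2.97 and -1.31. Their partner in the basement membrane, NID2, is described above, and LAMA4, a laminin chain, rose by 3.47. The collagen VI genes parted: COL6A3 rose by 5.29 but only to values between -1.40 and -0.65, while COL6A2 read 2.55, 3.22 and 2.38 against 5.02, 4.77 and 5.29 and fell by 2.31. COL5A1 fell from 2.84, 2.82 and 3.14 to -1.17, 0.32 and -0.38.

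Of 41 genes of the NF-kB response, the switch for inflammatory cytokines, 15 rose and 0 fell over all libraries, beside 7.72% and 5.62% of all genes, and 26 were not called. The counts were 17 and 0 without replicate 1, and 7 and 2 against it alone. TNFAIP6, a hyaluronan-binding protein of inflamed tissue, read 2.98, 3.14 and 2.92 against 0.44, -3.45 and -4.65. CXCL8, the chemokine interleukin 8, read 5.54, 5.85 and 5.85 against 4.09, 3.73 and 4.57, and here the 3 culture libraries were alike. IL18 read 3.91, 3.57 and 3.81 against 2.52, 1.87 and 1.13. C3, complement component 3, read 7.64, 8.26 and 7.80 against 7.27, 5.17 and 5.4, so replicate 1 of the culture lay close to the clone and C3 was not called against it (0.63). PTGS2, the inducible cyclooxygenase, and IL1B rose by 5.77 and 3.51 but stayed under log2 RPKM 0 in every library. IL6 was not called over all libraries (1.36, 1.88 and 1.13 against 1.06, 0.03 and -1.06).

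For interferon-stimulated genes the direction depended on replicate 1 of Ov4Carbo. Interferons act through JAK kinases and STAT factors on a short element in the promoters of antiviral genes, such as the IFIT, OAS and GBP families. Of 49 such genes 3 rose and 2 fell over all libraries, no larger a share than the 7.72% and 5.62% of all genes. Without replicate 1 the counts were 19 and 1, beside 9.03% and 7.69% of all genes, with a median log2 fold change of 0.92. Against replicate 1 alone they were 0 and 14, beside 5.77% and 3.63%, with a median of -0.75. MX1, an antiviral GTPase, read 3.25, 3.97 and 2.71 in the clone and 5.76, 2.49 and 2.37 in the culture, and OAS1, a sensor of double-stranded RNA, read 1.85, 2.32 and 1.38 against 4.07, 1.12 and 0.73. For both the clone lay between the culture libraries. IFIT2, which blocks viral translation, read 5.28, 5.24 and 5.15 against 5.0, 3.29 and 2.68, and GBP2, a guanylate-binding protein, 5.16, 4.95 and 4.39 against 4.12, 2.83 and 2.74. GBP3 read 3.09, 3.39 and 3.26 against 2.95, 0.85 and 1.14. These 3 rose over all libraries, but against replicate 1 the differences were 0.23, 0.72 and 0.29 and were not called.

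The response element was searched in the promoters of the list as GAAANNGAAA on both strands. It was in 29 of the 40 list genes with a promoter in the RefSeq table (72.5%), and in 3.65% of all 27305 promoters. GBP3 is printed because it rose, with its match in capitals. The window is chr1:89022817-89023116 on the minus strand, build GRCh38.p14.
GBP3: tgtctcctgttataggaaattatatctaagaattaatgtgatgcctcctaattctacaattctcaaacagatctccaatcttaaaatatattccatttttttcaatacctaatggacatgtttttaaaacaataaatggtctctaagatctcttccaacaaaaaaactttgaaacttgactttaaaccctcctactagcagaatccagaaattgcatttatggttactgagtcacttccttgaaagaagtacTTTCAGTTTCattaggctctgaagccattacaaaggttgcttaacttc
The match begins 2 bases past the start site. It is the same element by which the list is known, so this describes the list and not the clone.

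**Figure D4:**
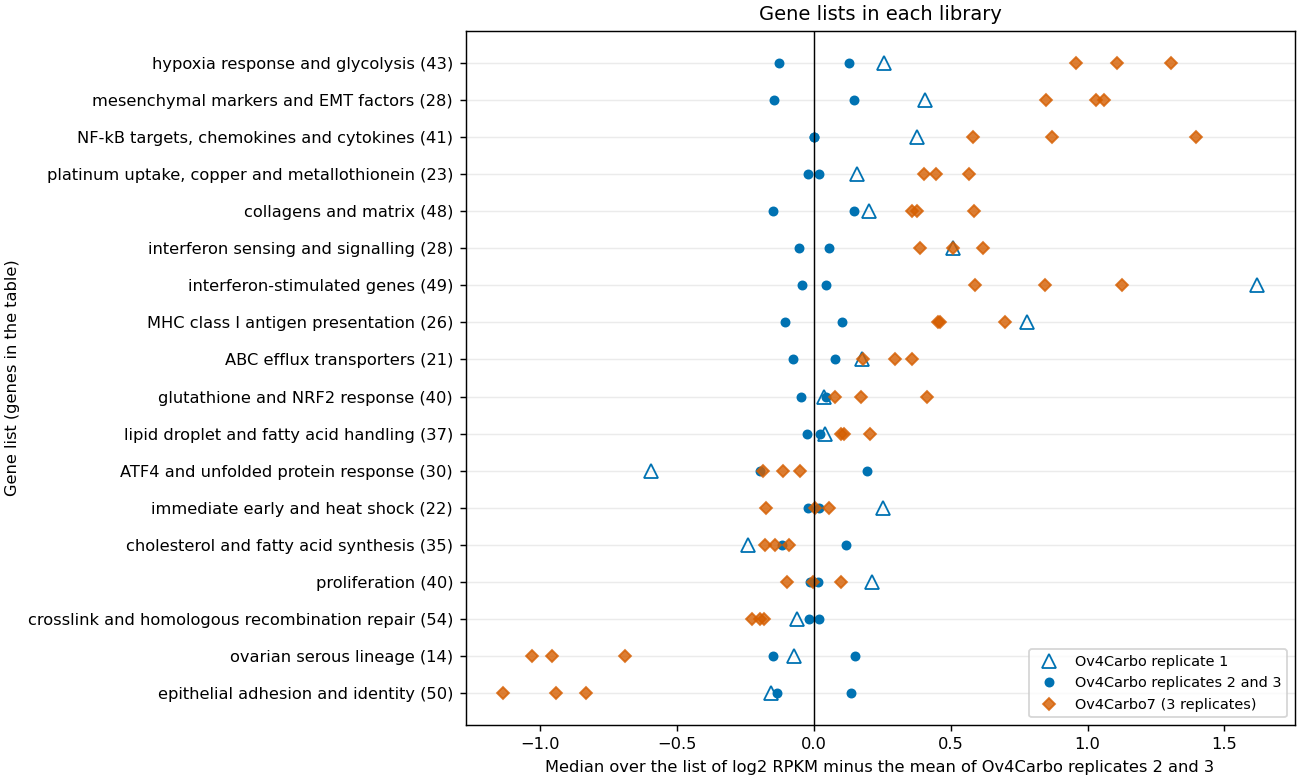
Median over each gene list of the log2 RPKM of a library minus the mean of Ov4Carbo replicates 2 and 3 (x axis) for 18 gene lists with at least 10 genes in the table (y axis, number of genes in brackets). The 3 Ov4Carbo7 libraries (diamonds) lie at 0.96 to 1.30 for hypoxia and at -1.13 to -0.83 for epithelial genes, with replicate 1 of Ov4Carbo (triangle) at 0.26 and -0.16, whereas for interferon-stimulated genes that replicate lies at 1.62, beyond the clone at 0.59 to 1.12.

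In the lists for the upstream signals and for antigen presentation, replicate 1 of Ov4Carbo decided some calls and not others. Of 28 sensing and signalling genes 3 rose and 0 fell, beside 7.72% and 5.62% of all genes, with 8 and 1 without that replicate and 1 and 1 against it alone. STING1, the adaptor that reports DNA in the cytoplasm, read 6.73, 6.90 and 6.88 against 5.77, 5.05 and 5.17 and was called in all 3 comparisons. RIGI and TLR3, sensors of viral RNA, rose by 1.14 and 1.10, but against replicate 1 the values were -0.18 and 0.23. Of 26 genes of class I presentation 4 rose and 0 fell, so 15.4% were called against 13.3% of all genes, with 7 and 0 without the replicate and 1 and 1 against it alone. The class I list also holds surface ligands that do not present antigen, and of its 4 rises ULBP2 and CD274 were such ligands. HLA-B and NLRC5 were the other rises. HLA-B read 7.40, 7.59 and 7.28 against 7.51, 4.81 and 5.4, so replicate 1 of the culture was level with the clone. The calls of IFIT2, RIGI and HLA-B over all libraries were also lost when any 1 of the other 5 libraries was left out. CD274, the immune checkpoint ligand PD-L1, read 0.98, 1.11 and 0.66 against -1.84, -1.56 and -0.86, with the 3 culture libraries all low, and was called in all 3 comparisons.

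Repair, cell death and proliferation genes were mostly not called, where 7.72% of all genes rose and 5.62% fell. A mean of at least log2 RPKM 1 was reached by 53 of the repair genes and all 40 proliferation genes. At that level 500 of 12010 genes rose and 351 fell, smaller shares than over all genes. Of 54 genes of crosslink and homologous recombination repair, through which platinum damage is mended, 0 rose and 1 fell, with 2 falls without replicate 1 of Ov4Carbo and 0 against it alone. The fall was that of RAD51B, at 2.08, 1.95 and 1.96 against 2.89, 3.20 and 3.12, and it was not called against replicate 1. BRCA1 read 2.87, 3.04 and 3.21 against 3.15, 3.26 and 3.55 (log2 fold change -0.28, SE 0.14) and BRCA2 1.46, 1.96 and 2.11 against 2.41, 2.21 and 2.13 (-0.40, SE 0.16). Neither was called. BTG2, an antiproliferative gene, fell by 2.44, and FAS, the death receptor, rose by 1.52, and both were not called against replicate 1. BIK and HRK, which promote cell death, fell by 1.34 and rose by 1.15. Against replicate 1 they differed by -1.24 and 1.05, and HRK was not called there. Both were weak in both lines, and on the log2(RPKM + 1) scale their changes were -0.71 and 0.49. CDKN1A, the cell cycle inhibitor p21, was not called over all libraries (1.38, 2.09 and 1.77 against 2.74, 3.57 and 4.87).

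Of 40 proliferation genes 0 rose and 1 fell, beside 7.72% and 5.62% of all genes. The median log2 fold change of the list was -0.10 over all libraries, -0.001 without replicate 1 of Ov4Carbo and -0.32 against it alone. MCM7, a subunit of the replicative helicase, read 5.82, 6.32 and 6.30 against 7.32, 6.99 and 7.28 (log2 fold change -1.05), and was not called without replicate 1 (-0.99). MKI67, the marker of cycling cells, was not called at 6.02, 6.27 and 6.69 against 6.29, 6.21 and 6.16. The next lowest genes of the list were MYBL2, UBE2C, E2F1, CDK1 and AURKA, at -0.91, -0.89, -0.66, -0.58 and -0.55. These 5, on chromosomes 20 and 10, and MCM7, on chromosome 7, lie in stretches described next where most genes read lower in the clone. Of 22 immediate early and heat shock genes, which respond within minutes to handling or growth factors, 0 rose and 3 fell (13.6%), beside 7.72% and 5.62% of all genes. The falls were FOS, FOSB and EGR1. Against replicate 1 of Ov4Carbo alone only FOSB was called. FOS read 3.76, 2.86 and 1.70 in the clone, the widest spread of the 3, against 5.38, 5.04 and 5.42. Of 30 genes of ATF4 signalling and the unfolded protein response 1 rose, SLC7A11, and 0 fell, beside the same shares of all genes. The median of that list was 0.08 over all libraries, -0.10 without replicate 1 and 0.60 against it alone.

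Neighbouring genes differed together over long stretches of several chromosomes. The 12010 genes with a chromosome and a mean of at least log2 RPKM 1 were put in order, and the median log2 fold change was taken over windows of 31 genes. A stretch was a run of at least 15 genes at which this median was beyond 0.3 in size, limits that were chosen after the data were seen. There were 27 such stretches on 11 chromosomes, 12 higher and 15 lower in the clone, with 1483 genes (12.3%). Of the 500 rises among the 12010 genes 435 lay outside the stretches, as did 254 of the 351 falls. The higher stretches held 54 rises and the lower ones 95 falls. The stretches were found from the same differences, so their sign is no separate result.

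The longest covered the 200 genes from ID1 to HELZ2 on chromosome 20, of which 186 read lower in the clone (93.0%), although only 31 were called. Measured from the mean of Ov4Carbo, the median of the stretch was -0.64, -0.63 and -0.66 in the clone libraries and -0.02, 0.01 and 0.00 in the culture libraries. Replicate 1 of Ov4Carbo was thus level with replicates 2 and 3 here, unlike its place in PLIN2, ABCB1 or the interferon genes, and the fitted median was -0.64 without it and -0.63 against it alone. In the Ov4Carbo4 libraries the same genes lay between -0.24 and -0.21 and in the parental libraries between -0.36 and -0.24. The end of chromosome 12 from CHST11 to RAN (159 genes) had medians of -0.51, -0.49 and -0.53 in the clone, and Ov4Carbo4 lay at -0.50 to -0.41 there as well.

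On chromosome 7 the 122 genes from SEMA3A to ORC5 had a median of -0.56, with 105 lower in the clone, while Ov4Carbo4 lay between -0.06 and -0.02. ABCB1, which rose, lies inside this stretch, and MCM7 as well. Chromosome 19 held a lower stretch of 93 genes from PROSER3 to CIC (median -0.56) and, farther along, a higher one of 48 genes from INAFM1 to MED25 (0.61), of which 46 read higher in the clone. The start of chromosome 12, from TULP3 on for 88 genes, was higher by 0.47, with 76 genes in that direction, and a stretch of 102 genes from R3HDM1 to OSBPL6 on chromosome 2 by 0.45. Of the 7 HOXA genes at this level, 6 lie in a higher stretch of 26 genes that starts at HOTAIRM1, and the HOXB genes lie in none. By whole chromosome the median log2 fold change was lowest for chromosomes 20, 21, 13 and 12, at -0.46, -0.37, -0.31 and -0.28, and between -0.18 and 0.10 for all others.

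**Figure D5:**
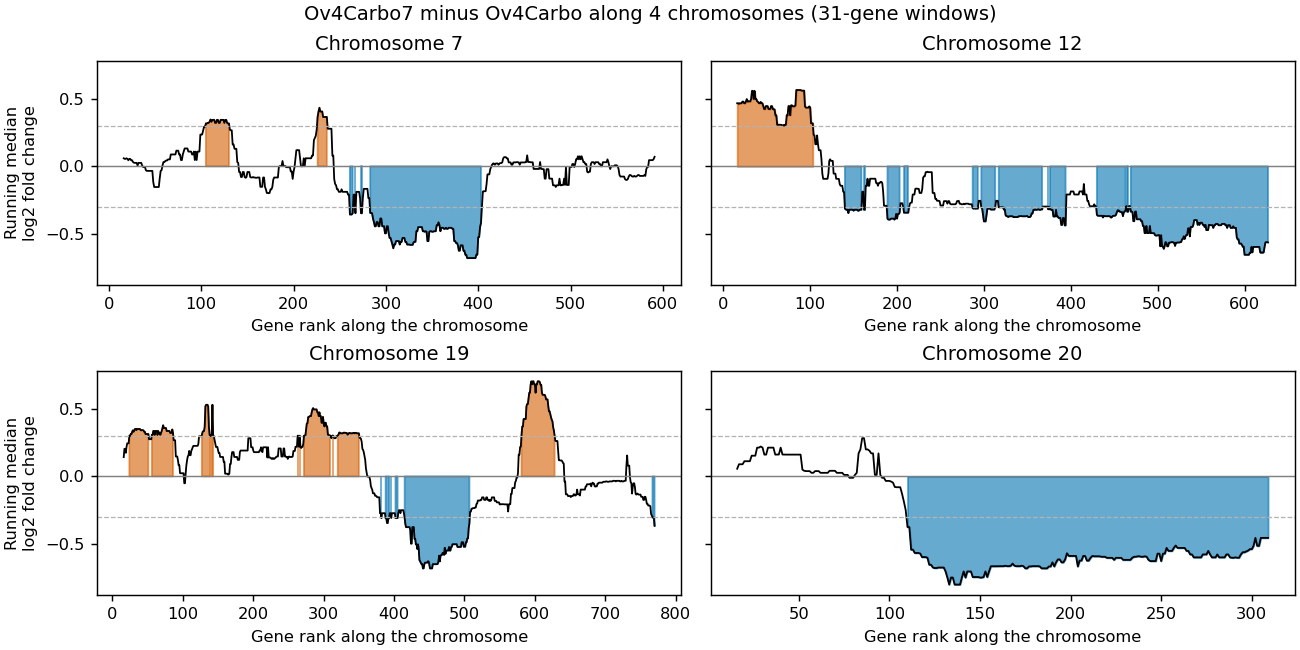
Running median of the log2 fold change of Ov4Carbo7 against Ov4Carbo over 31 genes (y axis) by gene rank along chromosomes 7, 12, 19 and 20 (x axis), among genes with a mean of at least log2 RPKM 1, with dashed lines at 0.3 and -0.3 and the part beyond them filled. The filled part of chromosome 20 is 1 stretch of 200 genes, and chromosomes 12 and 19 hold stretches in both directions.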

How the data were processed

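RNA from cultured cells was captured by polyA and sequenced, per the labels' protocols. The authors deposited log2 RPKM values after conditional quantile normalization, a correction for the length and GC content of genes, as the deposited table's name states. That name also mentions a threshold whose rule is not given in the sources used here. Per the submitters' processing notes, the tools were BWA 0.7.15-r1140 and HTSeq and the builds hg19 and GRCh37, with no role given. The normalized samples share 1 median, so a difference in total RNA between lines cannot be measured. Their whole distributions are not the same, since quantile normalization changed the counts of rises and falls. The table holds 16604 genes, and 16448 matched a symbol. Chromosome and gene order for 16499 genes came from GENCODE v29 (GRCh38), which is another build, so no gene coordinates are given.

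The deposited log2 values of the 15 samples were fitted in limma 3.58.1 (lmFit and eBayes, two-sided, R version 4.3.3), with a mean for every line and a spread shared by the 5 lines, with Benjamini-Hochberg adjustment over all genes. The fit was tested on simulated data. Tables and figures used matplotlib 3.10.9, pandas 2.3.3 and Python 3.11.15. The comparison, its 22 gene lists and the tests were chosen with earlier results of these data known. The HOXB and HOXA lists, the hypoxia motif and the limits for stretches of genes were added after the values were seen. Genes are named by rule: the 12 largest rises and 12 largest falls on the log2(RPKM + 1) scale among called genes whose lines do not overlap, up to 4 called members per list, and 20 further genes listed by name. Other list members are given as examples chosen after their values were seen. Alternatives were a variance trend, quantile normalization, median centring, a filter at mean log2 RPKM 1, pseudocounts of 1 and 0.1, only the 6 samples, a replicate block, a title-series term, sample weights, stricter thresholds and leaving out each library. One of the named genes and the list that holds it are not reported here. Replicate numbers were not used to pair libraries.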

Additional observations from a re-analysis of the deposited data

Results flagged for a closer look

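For the 24 genes with the largest changes, the difference between the single-cell lines Ov4Carbo7 and Ov4Carbo4 was tested in the same limma model. It was called for 22 of the 24, beside 20.9% of all genes in that comparison. The 24 were chosen for extreme values in the same Ov4Carbo7 libraries. A high share was therefore built in, and the 20.9% is no fair background for it. Among the genes that rose in Ov4Carbo7, the log2 difference between the clones was 10.67 for PLIN2, 7.85 for C2CD4A and 7.70 for CXCL5. It was 6.11 for SLC7A7, 6.07 for PCDH7, 6.02 for NDRG1 and 5.86 for NID2. It was 4.77 for RASEF, 3.90 for SLC1A1, 3.68 for ADM, 3.37 for EPAS1 and 2.08 for DPYD. Among the genes that fell, it was -5.09 for KIF1A, -4.99 for TNC, -4.58 for EPS8L1, -4.47 for MUC16 and -3.98 for AFAP1L2. It was -3.38 for APOE, -2.80 for EMX2OS, -2.41 for LINC03040, -2.30 for IGFBP2 and -1.25 for HOXB8. The 2 genes of the 24 not called were HOXB9 and HOXB5, which were low in both clones. A call between the clones does not tell whether a change from Ov4Carbo was shared. From Ov4Carbo to Ov4Carbo4, HOXB8, HOXB9 and HOXB5 also fell (-2.45, -3.85 and -2.47) and DPYD also rose (1.03). PLIN2, CXCL5, SLC7A7 and NDRG1 went the other way, by -3.46, -3.74, -1.90 and -1.70, as did KIF1A, by 1.06. The others of the 24 were not called there.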

How the results depend on the processing

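The count of 2214 called genes (1281 higher, 933 lower) lay between 1938 and 2776 when each of the 6 libraries was left out in turn, and was highest without replicate 1 of Ov4Carbo. It was 851 (465 and 386) when genes with a mean under log2 RPKM 1 were left out, 823 (491 and 332) on log2(RPKM + 1), 772 (476 and 296) at a log2 fold change of at least 2, and 1148 (663 and 485) on log2(RPKM + 1) without replicate 1, a setting chosen after the data were seen. With the title-series term it was 1560, and the falls went from 933 to 602. The counts were 2225 with a variance trend, 2198 with quantile normalization, 2214 with median centring, 1911 on log2(RPKM + 0.1), 1917 with only the 6 samples, 1820 at an adjusted p under 0.01, and 2134 with sample weights, whose estimation stopped before it converged. Quantile normalization made 52.2% of the calls rises, against 57.9%. With the title-series term the median of the interferon-stimulated list (-0.75), RIGI (-0.18) and HLA-B (-0.091) changed sign, as did VIM (-0.017), which was not called, and the medians of the sensing and class I lists (-0.079 and -0.080). The medians of the immediate early and ATF4 lists, at -0.072 and 0.076, changed sign with sample weights or when a culture library was left out. Of the values of named genes under these settings, 1482 kept their side of the threshold, 167 lost the call and 1 gained it, MT1X at 1.01 without replicate 2 of Ov4Carbo. The replicate numbers did not pair the libraries: the correlations of same-numbered deviations were -0.358, -0.351 and -0.00191, and a replicate block gave 2156 called genes. The depth is unknown, and genes with a mean under log2 RPKM 1 were called more often than those above.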
